A study of Mus musculus with 18 samples.

Results

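Perfluorooctane sulfonic acid (PFOS) in a high-fat diet was compared with the same diet without a compound in mouse liver. The comparison rests on 6 arrays, taken by their titles from the 18 of the series: 3 livers of mice fed the high-fat diet with PFOS (labelled H-PFOS) and 3 livers of mice fed the high-fat diet alone (labelled HFD). All mice were male C57BL6, ate their diet freely for 12 weeks and were killed at 18 weeks of age. Fat supplied 45% of the energy in the high-fat diet. The other 12 arrays, 3 a group, came from the high-fat diet with perfluorononanoic acid (PFNA), from a low-fat diet (10% of energy) with PFOS, from the low-fat diet with PFNA, and from the low-fat diet alone. The title of the series sets these groups in a study of diet and of fatty liver caused by PFOS and PFNA. The labels do not state how much compound the diets held. In what follows PFOS and control livers are those of the high-fat diet unless the low-fat diet is named.

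PFOS is a persistent perfluorinated sulfonate and PFNA a perfluorinated carboxylate. Both resemble fatty acids, and both are known to activate the nuclear receptor PPARA in rodent liver, which switches on the genes of fatty acid oxidation and omega-hydroxylation. They also act through CAR and PXR, receptors of foreign compounds whose textbook marker in the mouse is the cytochrome P450 gene Cyp2b10. In fatty liver disease, hepatocytes store triglyceride in lipid droplets, and the balance between fatty acid uptake, synthesis, oxidation and export sets how much is stored.

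Each array gave a log2 signal for 34472 probe sets, here called probes. Of these, 23521 carried a single gene symbol, and the brightest probe stood for each of the 22180 genes. The array medians lay between 4.43 and 4.54 in the 6 livers, and the deposited values include no measure of background, so a signal near or below that median is not shown to lie above background. Such differences are given as array signal, without a fold. Hepatocyte markers were bright: Alb, the albumin gene, read 13.91, 13.88 and 13.86 in PFOS livers, against 13.90, 13.91 and 13.95 in controls. The arrays are labelled as biological replicates.

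Arrays outside the comparison bear on its error. On the first principal component of all probes the 3 PFOS livers scored 27.8, 34.9 and 38.6, and the 3 controls between -15.9 and -8.22. Replicate 3 of PFOS on the low-fat diet (32.9) and replicate 3 of PFNA on the high-fat diet (32.4) lay beside the high-fat PFOS livers and away from the other members of their own groups. The remaining 10 arrays scored between -22.9 and -8.08. These 2 arrays do not enter the difference between PFOS and control livers, but they widen the spread that all groups share in the fit. Counts are therefore given with all 18 arrays and without these 2. The 2 arrays were picked out by their measured values, for lying beside the PFOS livers. Leaving them out narrows the spread of genes in which they lie with those livers, which favours calls of these genes. For Sptlc3 the SE was 1.20 with them and 0.23 without. For PFOS against control on the high-fat diet, counts and p-values without them therefore describe how far the shared spread matters. They are not a second support for any call. In comparisons that use low-fat PFOS or high-fat PFNA livers they also move the group means. For these, the only test results given without them are counts of called probes, in the closing section. Whether the 2 arrays differ through biology or through handling cannot be told apart from the labels, and this limits every value of those 2 groups.

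**Figure D1:**
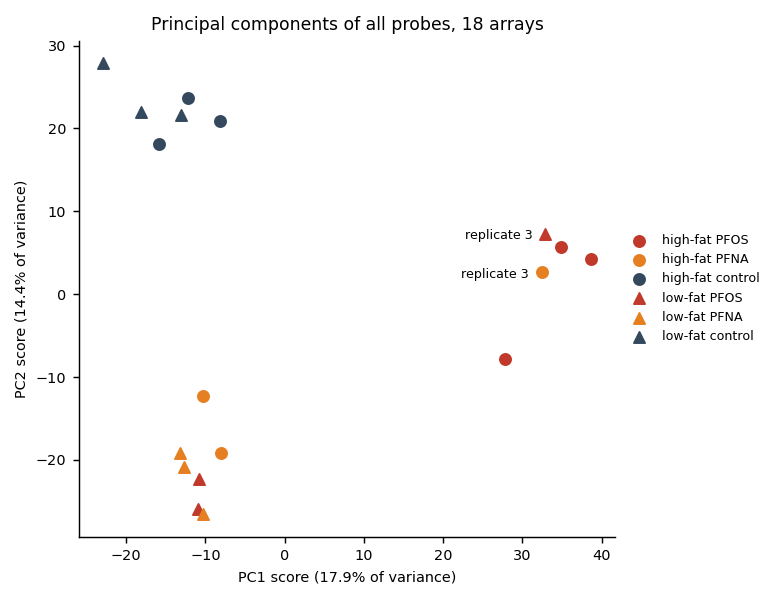
Scores of the 18 arrays on principal components 1 and 2 of all probes, in arbitrary units, with each component's share of the variance on its axis; colour gives the compound and shape the diet. The 3 high-fat PFOS livers and the 2 arrays marked replicate 3 stand to the right, above a PC1 score of 27, and the other 13 arrays stand to the left. On PC2 the 6 control livers of both diets lie at the top.

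With all 18 arrays in the limma fit, 352 of 34472 probes passed an adjusted p under 0.05 for PFOS against control on the high-fat diet, which is 1.02% of those tested. Of these, 218 were higher in PFOS livers (0.632%) and 134 lower (0.389%). Counted by genes, 182 of 22180 rose (0.821%) and 76 fell (0.343%). With the 2 arrays left out 523 genes rose (2.36%) and 261 fell (1.18%), and all 352 probes were still called among 1011 (2.93%). Among all 22180 genes, 11.4% had all 3 PFOS livers above all 3 controls and 8.83% had all 3 below, and the median log2 difference was -0.00333. The shares in parentheses are the background against which the gene groups below are read. The precision is set by 3 arrays a group: without 1 of them the count of called probes was 157, 61 and 118 (PFOS replicates 1, 2 and 3) and 184, 93 and 82 (control replicates 1, 2 and 3). Of the 82 named genes that were called, 16 stayed called whichever array was left out, and they are pointed out where they appear. Another 33, Sptlc3, Ehhadh, Cyp4a31 and Hsd3b5 among them, were lost whichever of the 6 was left out, and the highest adjusted p of the 82 genes under these omissions was 0.186.

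**Figure D2:**
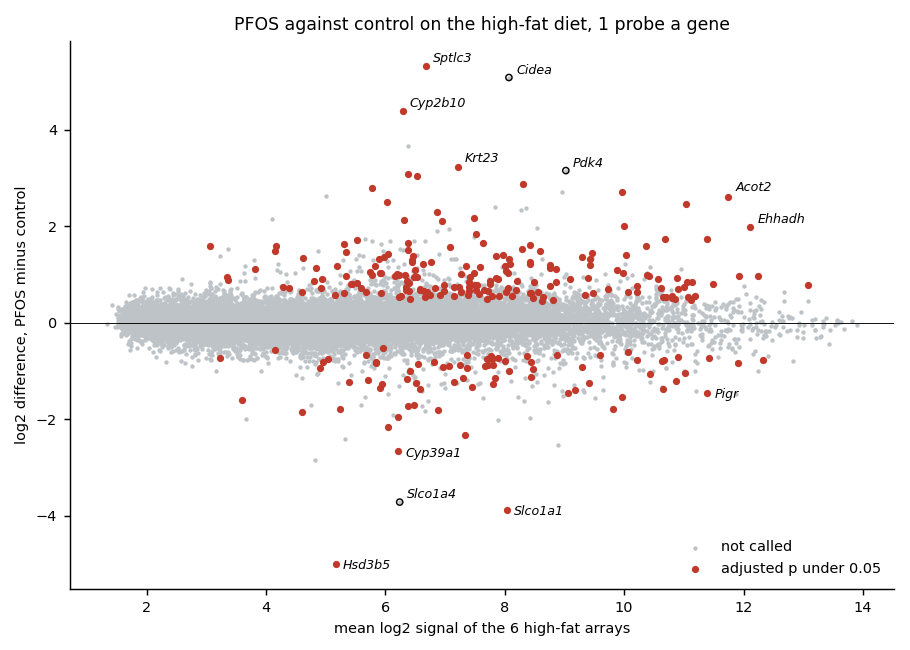
Log2 difference, PFOS minus control, against the mean log2 signal of the 6 high-fat livers, for the brightest probe of each of 22180 genes. Red points passed an adjusted p under 0.05, and the 3 black open circles (Cidea, Pdk4 and Slco1a4) did not with all 18 arrays. The called genes reach from Hsd3b5 at -4.99 to Sptlc3 at 5.32.

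Genes that PPARA is known to control rose. Of 27 measured genes of peroxisomal fatty acid oxidation 8 rose and none fell, against a background of 0.821% and 0.343%, with a median log2 difference of 0.39. Without the 2 arrays 13 rose. Ehhadh, the peroxisomal bifunctional enzyme, read 12.91, 13.26 and 13.12 in PFOS livers, against 11.17, 11.05 and 11.13 in controls. The 2 groups lie far apart, with a difference of 1.98 (SE 0.40, adjusted p = 0.0259), a signal 3.95 times that of controls. Acaa1b, a peroxisomal thiolase that completes the oxidation cycle, read 12.35, 12.43 and 12.45 in PFOS livers, against 11.49, 11.40 and 11.45 in controls. It rose by 0.96 (SE 0.13, adjusted p = 0.00178).

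The other 6 of the 8 also act on acyl groups. Acot3, a peroxisomal thioesterase that releases fatty acids from coenzyme A, was 9.36, 9.33 and 9.31 in PFOS livers, against 7.87, 7.79 and 7.89 in controls, a rise of 1.48 (SE 0.24, adjusted p = 0.00935). Crat, which moves short acyl groups onto carnitine, was 10.53, 10.27 and 10.48 in PFOS livers, against 9.27, 9.50 and 9.24 in controls, and rose by 1.09 (SE 0.18, adjusted p = 0.00935). Acot4 (1.21, adjusted p = 0.0375), Acot12 (0.56, adjusted p = 0.0267) and the acyl-CoA dehydrogenase Acad11 (0.49, adjusted p = 0.0294) also rose. Acot5 was 3.55, 3.83 and 4.08 in PFOS livers, against 2.80, 2.65 and 3.16 in controls, all below the array median, so its call (0.95, adjusted p = 0.0208) is one of array signal not shown above background. Acot12 is a cytosolic enzyme that splits acetyl-CoA rather than a peroxisomal one. Of the 8, Acaa1b, Acot3 and Crat stayed called without any 1 array. A dimmer second probe gave 0.56 for Acot4 (adjusted p = 0.293) and 0.13 for Crat (adjusted p = 0.816). Acot1 to Acot5 are close relatives in a gene cluster, and how far their probes read each other was not tested.

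Of 23 genes of mitochondrial fatty acid oxidation 3 rose and none fell, and 21 had a difference above 0 (median 0.49). Without the 2 arrays 13 rose. Acot2, the mitochondrial thioesterase, was 12.85, 12.90 and 13.41 in PFOS livers, against 10.61, 10.47 and 10.25 in controls. Its rise of 2.61 (SE 0.43, adjusted p = 0.00935) is a signal 6.11 times that of controls, and it stayed called without any 1 array. Acadl, the long-chain acyl-CoA dehydrogenase, rose by 0.73 (SE 0.15, adjusted p = 0.0259). Slc25a20, the carrier that brings acylcarnitines through the inner membrane, rose by 0.63 (SE 0.13, adjusted p = 0.0266).

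Pdk4 and Ucp3 had larger differences in the same list that did not pass with all 18 arrays. Their p-values without the 2 arrays are not support for a rise, since those arrays were picked for lying beside the PFOS livers. Pdk4, the kinase that holds back pyruvate oxidation, was 10.13, 10.45 and 11.21 in PFOS livers, against 7.71, 7.47 and 7.16 in controls. The difference of 3.15 (SE 0.81) had an adjusted p of 0.0683, and of 0.000117 without the 2 arrays. Ucp3, a mitochondrial uncoupling protein chosen for mention after its values were seen, had a difference of 2.62 (adjusted p = 0.0787, and 1.89e-05 without the 2 arrays), with control signals of 3.82, 3.33 and 3.93 that are below the array median. Cpt1a, the carnitine palmitoyltransferase that gates entry into mitochondria, was also chosen after its values were seen. It read 11.37, 11.40 and 11.45 in PFOS livers, against 11.63, 11.38 and 11.34 in controls, and the groups overlap (difference -0.04, SE 0.14, adjusted p = 0.932).

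The third list, 42 other established targets of PPARA, had 13 genes that rose, none that fell and a median difference of 0.74. Leaving out the 2 arrays, 26 rose. Krt23, a keratin, was 8.60, 8.94 and 8.92 in PFOS livers, against 5.37, 5.30 and 6.14 in controls. Its rise of 3.22 (SE 0.29, adjusted p = 7.68e-05) was among the most certain of the comparison and stayed called without any 1 array. Acot1, a cytosolic thioesterase, was 10.80, 11.42 and 11.74 in PFOS livers, against 8.35, 8.64 and 8.85 in controls. It rose by 2.71 (SE 0.37, adjusted p = 0.00218), a signal 6.53 times that of controls, and also stayed called.

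The genes of fatty acid omega-hydroxylation rose together. Cyp4a31 was 11.98, 12.30 and 12.53 in PFOS livers, against 9.68, 10.11 and 9.62 in controls, a rise of 2.47 (SE 0.50, adjusted p = 0.0259). Cyp4a12b rose by 2.01 (SE 0.19, adjusted p = 7.68e-05) and Cyp4a12a by 1.36 (SE 0.14, adjusted p = 0.00012), and both stayed called without any 1 array. Cyp4a12a and Cyp4a12b are nearly identical, so their probes may not separate them. Cyp4a14 was already at 12.58, 12.79 and 12.68 in controls, close to the highest signal on any array (14.01), and read 13.39, 13.52 and 13.51 in PFOS livers. Its rise of 0.79 (SE 0.13, adjusted p = 0.00935) was the smallest of the 4.

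Transporters and enzymes of fatty acid handling completed the list. Slc27a1, a fatty acid transport protein, was 9.18, 10.21 and 9.82 in PFOS livers, against 6.81, 7.05 and 6.76 in controls, a rise of 2.86 (SE 0.49, adjusted p = 0.0118). Aqp3, a channel for water and glycerol, rose by 2.79 (SE 0.64, adjusted p = 0.0457), with control signals of 4.06, 4.54 and 4.56 at the array median. Pltp, which transfers phospholipid between lipoproteins, rose by 1.74 (SE 0.30, adjusted p = 0.0118). The NADPH-producing malic enzyme Me1 rose by 1.59 (adjusted p = 0.0407), the retinol saturase Retsat by 0.97 (adjusted p = 0.0319), the fatty aldehyde dehydrogenase Aldh3a2 by 0.80 (adjusted p = 0.0424) and Aldh9a1, an aldehyde dehydrogenase of carnitine synthesis, by 0.53 (adjusted p = 0.0284). For Aldh3a2 a dimmer probe gave 0.51 (adjusted p = 0.511).

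Well-known PPARA targets were also found with overlapping groups. Fgf21, a hormone of the fasting response, read 6.69, 7.29 and 9.02 in PFOS livers, against 7.77, 7.21 and 7.01 in controls (difference 0.34, SE 0.48, adjusted p = 0.837). Angptl4, an inhibitor of lipoprotein lipase, read 9.79, 10.00 and 9.88 in PFOS livers, against 9.68, 10.28 and 9.96 in controls (difference -0.08, SE 0.16, adjusted p = 0.883). Both were chosen after their values were seen. Ppara itself read 10.01, 9.79 and 9.83 in PFOS livers, against 9.86, 10.00 and 9.87 in controls, a difference of -0.03 (SE 0.12, adjusted p = 0.94) whose sign turned to 0.01 under median centring.

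**Figure D3:**
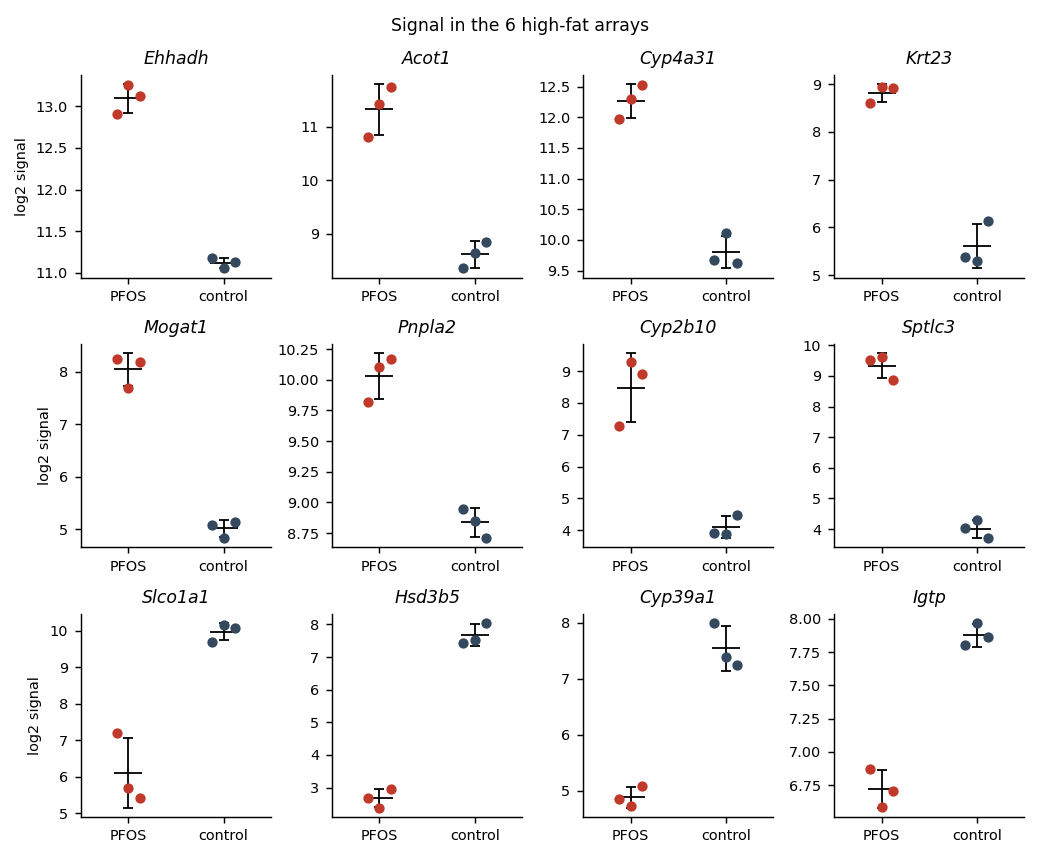
Log2 signal of 12 called genes in each of the 3 PFOS livers (red) and 3 control livers (dark blue) on the high-fat diet; bars give the mean and SD, and each panel has its own axis. In all 12 panels the 2 groups lie apart: the top 8 panels are higher and the bottom row is lower in PFOS livers.

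Because genes of the PPARA lists rose together, their promoters were searched for the direct repeat that PPARA binds with its partner RXR. Promoters were RefSeq windows of build GRCm38.p6 that run from 250 bases before to 50 bases after the start of transcription, and the motif was AGGTCANAGGTCA with at most 2 mismatches on either strand. Shares were counted over genes with a window, and a gene with several windows counted once if any of them matched. The motif was found in 4 of the 19 PPARA-list genes that rose (21.1%) and in 12 of 73 PPARA-list genes measured (16.4%). Among all genes it was found in 688 of 16990 (4.05%). It was also found in 13 of 149 of all genes that rose (8.72%) and in 6 of 56 of those that fell (10.7%). The 4 genes with a match are printed 5′ to 3′ on the strand of the gene, since they are the called PPARA-list members that hold it, with the match in capitals.
Acot12, chr13:91741271-91741570, + strand, 1 mismatch: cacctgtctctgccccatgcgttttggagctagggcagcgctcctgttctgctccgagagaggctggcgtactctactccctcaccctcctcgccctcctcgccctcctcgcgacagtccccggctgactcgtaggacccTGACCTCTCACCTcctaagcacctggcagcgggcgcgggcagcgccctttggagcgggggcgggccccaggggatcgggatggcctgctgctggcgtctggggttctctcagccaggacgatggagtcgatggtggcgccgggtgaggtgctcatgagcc
Acot4, chr12:84038129-84038428, + strand, 2 mismatches: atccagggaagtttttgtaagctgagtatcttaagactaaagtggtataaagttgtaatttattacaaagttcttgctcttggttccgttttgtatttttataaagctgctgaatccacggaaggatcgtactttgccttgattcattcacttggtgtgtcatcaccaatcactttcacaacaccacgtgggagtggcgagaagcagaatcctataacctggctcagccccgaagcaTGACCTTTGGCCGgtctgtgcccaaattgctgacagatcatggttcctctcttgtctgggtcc
Slc25a20, chr9:108661886-108662185, + strand, 2 mismatches: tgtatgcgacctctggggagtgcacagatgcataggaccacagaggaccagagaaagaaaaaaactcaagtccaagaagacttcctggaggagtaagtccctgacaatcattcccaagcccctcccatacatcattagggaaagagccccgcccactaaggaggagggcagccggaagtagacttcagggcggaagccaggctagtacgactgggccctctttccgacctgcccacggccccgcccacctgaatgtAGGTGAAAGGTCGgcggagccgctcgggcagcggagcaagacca
Aldh9a1, chr1:167349741-167350040, + strand, 2 mismatches: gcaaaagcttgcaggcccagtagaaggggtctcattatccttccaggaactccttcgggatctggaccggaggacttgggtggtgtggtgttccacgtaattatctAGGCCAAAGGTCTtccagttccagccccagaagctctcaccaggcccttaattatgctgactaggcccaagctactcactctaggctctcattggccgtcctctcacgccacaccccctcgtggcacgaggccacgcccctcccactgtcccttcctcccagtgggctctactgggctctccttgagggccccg
The match lies on the opposite strand in Acot12 and Acot4 and on the printed strand in Slc25a20 and Aldh9a1. A match describes letters in these windows and no binding was measured.

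Genes of fatty acid and triglyceride synthesis rose beside those of oxidation. Of 35 measured 9 rose and none fell, with a median difference of 0.50, and without the 2 arrays 10 rose. Mogat1, which makes diacylglycerol from monoacylglycerol, was 8.25, 7.69 and 8.19 in PFOS livers, against 5.07, 4.83 and 5.14 in controls. It rose by 3.03 (SE 0.49, adjusted p = 0.00935) and was the member that stayed called without any 1 array. The acetyl-CoA carboxylases, which make malonyl-CoA, both rose: Acacb was 9.26, 8.10 and 7.93 in PFOS livers, against 6.77, 6.49 and 6.51 in controls, a rise of 1.84 (SE 0.39, adjusted p = 0.0328). Acaca was 9.13, 8.33 and 8.23 in PFOS livers, against 7.77, 7.39 and 7.30 in controls, a rise of 1.08 (SE 0.25, adjusted p = 0.0497).

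PFOS replicate 1 was the highest of the 3 PFOS livers for both carboxylases. It was also highest for Srebf1, the transcription factor of lipogenesis, at 9.40, 8.65 and 9.14 in PFOS livers, against 8.37, 7.54 and 7.48 in controls (rise 1.27, SE 0.24, adjusted p = 0.02). Fasn, the fatty acid synthase, chosen after its values were seen, read 11.80, 9.30 and 9.28 in PFOS livers, against 9.33, 8.51 and 8.49 in controls. With PFOS replicates 2 and 3 just below control replicate 1, its difference of 1.35 (SE 0.50) did not pass (adjusted p = 0.222). The glycerol phosphate acyltransferases Gpat3 (1.31, adjusted p = 0.0457) and Gpat4 (0.70, adjusted p = 0.0384) rose, as did the elongase Elovl3 (0.92, adjusted p = 0.039) and Mid1ip1, an activator of acetyl-CoA carboxylase (1.09, adjusted p = 0.0132). Me1, named above, was the other member. For Mid1ip1, 2 dimmer probes gave 0.18 and -0.03.

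Lipid droplet genes and lipases had 3 of 23 members that rose, none that fell and a median of 0.34, or 6 that rose without the 2 arrays. Pnpla2, the adipose triglyceride lipase that opens triglyceride breakdown, was 9.82, 10.10 and 10.17 in PFOS livers, against 8.95, 8.85 and 8.71 in controls, and rose by 1.19 (SE 0.13, adjusted p = 0.000359). Lipe, the hormone-sensitive lipase that acts after it, was 6.83, 6.72 and 6.85 in PFOS livers, against 5.86, 6.02 and 5.94 in controls, and rose by 0.86 (SE 0.11, adjusted p = 0.00178). Both stayed called without any 1 array. Hsd17b11, a dehydrogenase found on lipid droplets, rose by 1.74 (SE 0.28, adjusted p = 0.00935).

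The droplet-fusion proteins Cidea and Cidec, chosen after their values were seen, show what the shared spread does to a call. Cidea was 11.02, 9.94 and 10.86 in PFOS livers, against 7.89, 4.38 and 4.32 in controls. Control replicate 1 was far above the other 2 controls, and the difference of 5.08 (SE 1.48) had an adjusted p of 0.109, or 0.000681 without the 2 arrays. Cidec was 10.28, 10.17 and 10.49 in PFOS livers, against 9.07, 6.74 and 6.99 in controls, a difference of 2.71 (adjusted p = 0.0585, and 0.00719 without the 2 arrays). The fatty acid carrier Fabp4 (2.40), the lipoprotein lipase Lpl (2.37) and the scavenger receptor Cd36 (1.12), also chosen after their values were seen, had adjusted p of 0.0727, 0.0585 and 0.0874, and of 3.23e-05, 0.000468 and 0.0144 without the 2 arrays.

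Adipocyte markers overlap with these genes. Of 8 such markers Pnpla2 was called (3 rose and 1 fell without the 2 arrays), and Fabp4 and Cidec were the other members with differences above 1. The defining adipocyte genes, chosen after their values were seen, were Adipoq (2.53, 2.07 and 2.27 in PFOS livers, against 2.37, 2.36 and 2.24 in controls), Lep (3.75, 3.83 and 3.72 in PFOS livers, against 3.38, 3.90 and 3.78 in controls) and Plin1 (4.33, 4.68 and 4.49 in PFOS livers, against 4.80, 4.68 and 4.45 in controls). They lay near or below the array median in all 6 livers and their groups overlap.

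Targets of CAR and PXR split. Of 41 measured 3 rose and 1 fell, with a median of 0.06, and without the 2 arrays 8 rose and 3 fell. Cyp2b10, the marker gene of CAR, was 7.26, 9.28 and 8.91 in PFOS livers, against 3.92, 3.88 and 4.49 in controls. The control signals are at or below the array median, so the difference of 4.39 (SE 0.67, adjusted p = 0.00621) is one of array signal, and it stayed called without any 1 array. Cyp2c55 was 7.63, 6.87 and 7.35 in PFOS livers, against 4.58, 4.86 and 4.90 in controls. Its control signals are near the array median, so the difference of 2.50 (SE 0.47, adjusted p = 0.0183) is also one of array signal. A dimmer second probe of Cyp2c55 gave a difference of 0. Abcc4, which pumps organic anions out of cells, was 6.63, 7.92 and 7.08 in PFOS livers, against 5.93, 5.47 and 5.29 in controls, and rose by 1.65 (SE 0.33, adjusted p = 0.0267). The P450 gene Cyp2c38 fell by 1.24 (SE 0.28, adjusted p = 0.0445). The lowest difference of the list, that of Slco1a4 (-3.71, adjusted p = 0.0575), did not pass and is given below.

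The receptor genes themselves were not called. Nr1i3, the gene of CAR, read 10.33, 10.75 and 10.77 in PFOS livers, against 10.92, 11.23 and 11.08 in controls (difference -0.46, SE 0.19, adjusted p = 0.285). Nr1i2, the gene of PXR, read 9.12, 9.31 and 9.64 in PFOS livers, against 8.99, 9.04 and 8.97 in controls (difference 0.36, SE 0.17, adjusted p = 0.356). Of 23 nuclear receptors and partners only Ahr, the dioxin receptor, was called. It was 7.81, 8.06 and 7.74 in PFOS livers, against 8.78, 9.32 and 8.88 in controls, a fall of 1.12 (SE 0.26, adjusted p = 0.0445). None of 7 AHR targets was called. Nqo1 (0.76, adjusted p = 0.0758) and Cyp1a2 (-0.30, adjusted p = 0.646) had the largest differences.

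Of 26 targets of NRF2, the regulator of antioxidant defence, 3 rose and none fell, with a median of 0.38, and without the 2 arrays 5 rose. They were Abcc4, Me1 and the epoxide hydrolase Ephx1 (0.54, SE 0.11, adjusted p = 0.0305). Nfe2l2, the gene of NRF2, had overlapping groups (-0.14, SE 0.17, adjusted p = 0.796). The classic target Hmox1, heme oxygenase, had a difference of -0.40 that did not pass.

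Of 28 genes of bile acid synthesis and transport 1 rose (Abcc4) and 3 fell, with a median of -0.16, and without the 2 arrays 7 fell. Slco1a1, an uptake transporter of organic anions and bile acids, was 7.19, 5.70 and 5.43 in PFOS livers, against 9.70, 10.15 and 10.07 in controls. It fell by 3.87 (SE 0.65, adjusted p = 0.00936). Cyp39a1, an oxysterol hydroxylase, was 4.85, 4.72 and 5.08 in PFOS livers, against 8.0, 7.39 and 7.24 in controls. Its PFOS signals are near the array median, so the fall of 2.66 (SE 0.58, adjusted p = 0.0344) is one of array signal. Akr1c6, an aldo-keto reductase of steroids, fell by 0.99 (SE 0.17, adjusted p = 0.0128).

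Slco1a4, a second uptake transporter, and Cyp7a1, the rate-limiting enzyme of bile acid synthesis, were chosen after their values were seen. Slco1a4 read 4.49, 4.08 and 4.58 in PFOS livers, against 8.61, 7.57 and 8.11 in controls, a difference of -3.71 (adjusted p = 0.0575, and 1.98e-05 without the 2 arrays). Its PFOS signals are near or below the array median, and its p-value without the 2 arrays is not support for a fall. Cyp7a1 read 7.36, 9.08 and 6.43 in PFOS livers, against 10.89, 10.15 and 9.44 in controls. Its PFOS livers scattered over more than 2 log2 units, and the difference of -2.54 (SE 0.82) did not pass with or without the 2 arrays (adjusted p = 0.151 and 0.0698).

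Of 19 carriers of foreign compounds 2 rose and 4 fell, and without the 2 arrays 3 rose and 7 fell. Slc22a30, of the organic anion transporter family, was 4.58, 3.93 and 4.53 in PFOS livers, against 5.98, 6.18 and 6.23 in controls. Its PFOS signals are near or below the array median, so the fall of 1.78 (SE 0.19, adjusted p = 0.000176) is one of array signal. Slc22a30 stayed called without any 1 array. Its relatives Slc22a7 (-1.95, adjusted p = 0.039) and Slc22a28 (-0.95, adjusted p = 0.0445) also fell, beside Slco1a1. The efflux pump Abcg2 was 9.32, 9.38 and 9.53 in PFOS livers, against 8.25, 8.28 and 8.38 in controls, a rise of 1.11 (SE 0.22, adjusted p = 0.0246), so the 2 members that rose, Abcg2 and Abcc4, are both exporters. Outside this list, Slc10a2, the apical bile acid transporter, fell by 2.15 (SE 0.40, adjusted p = 0.0183). In PFOS replicate 2 its signal (4.28) was below the array median, so this fall too is one of array signal.

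Genes that are higher in male than in female mouse liver moved in both directions. Of 21 measured 4 rose and 5 fell, with a median of -0.36, and without the 2 arrays 4 rose and 6 fell. Hsd3b5, a steroid dehydrogenase found in male liver, had the largest fall of the comparison. It was 2.68, 2.39 and 2.96 in PFOS livers, against 7.43, 7.51 and 8.05 in controls, and the PFOS signals lie well below the array median, so the difference of -4.99 (SE 0.99, adjusted p = 0.0255) is one of array signal. Serpina12, the gene of vaspin, was 3.68, 3.56 and 3.81 in PFOS livers, against 5.74, 5.36 and 5.48 in controls (-1.84, SE 0.35, adjusted p = 0.02). Its PFOS signals are below the array median too. The major urinary protein gene Mup21 (-1.72, adjusted p = 0.0132), the protease inhibitor gene Serpina1e (-1.54, adjusted p = 0.0383) and Slco1a1 also fell.

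The 4 male-predominant genes that rose were Cyp4a12a, Cyp4a12b, Elovl3 and the steroid hydroxylase gene Cyp2d9 (0.71, SE 0.16, adjusted p = 0.0396). The first 3 of these also belong to the lipid lists above. Mup20, another urinary protein gene of male liver, chosen after its values were seen, read 12.74, 12.88 and 12.47 in PFOS livers, against 12.96, 12.72 and 12.86 in controls, and the groups overlap (difference -0.15, adjusted p = 0.692). Of 20 female-predominant genes 2 rose, Acot3 and Cyp4a14, which are lipid genes too, and the median was 0.07.

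Genes of the pericentral zone of the liver lobule fell in part. Of 18 none rose and 3 fell, with a median of -0.33, and without the 2 arrays 5 fell. Gulo, the last enzyme of vitamin C synthesis, was 10.40, 9.74 and 9.74 in PFOS livers, against 11.32, 11.36 and 11.34 in controls, a fall of 1.38 (SE 0.32, adjusted p = 0.0497). Lgr5, a receptor of the Wnt pathway, fell by 1.22 (SE 0.23, adjusted p = 0.0214), but a dimmer probe gave 0.21. In PFOS replicate 2 the Lgr5 signal (4.28) was below the array median, so this fall is one of array signal. Slc1a2, a glutamate transporter, fell by 0.87 (SE 0.19, adjusted p = 0.0324). Of 16 periportal genes Pigr, the receptor that carries antibodies into bile, was called. It was 10.61, 10.70 and 10.70 in PFOS livers, against 12.11, 12.21 and 12.03 in controls, a fall of 1.45 (SE 0.32, adjusted p = 0.0407). The pericentral marker Glul, glutamine synthetase, chosen after its values were seen, had a difference of -0.36 that did not pass.

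Genes of immunity and of secreted liver proteins leaned lower. Of 29 interferon-stimulated genes none rose and 3 fell, with the lowest median of all lists (-0.63), and without the 2 arrays 10 fell. In 22 of the 29 all 3 PFOS livers were below all 3 controls, where 8.83% of all genes were. The 3 called genes are GTPases of immunity. Igtp was 6.87, 6.59 and 6.71 in PFOS livers, against 7.80, 7.97 and 7.86 in controls, a fall of 1.15 (SE 0.17, adjusted p = 0.00351) that stayed called without any 1 array. Irgm1 fell by 0.99 (adjusted p = 0.0144) and Irgm2 by 0.89 (adjusted p = 0.0407), and the 3 genes resemble each other in sequence. Ifit1, an antiviral gene chosen after its values were seen, was 6.22, 5.75 and 5.78 in PFOS livers, against 7.45, 7.54 and 7.59 in controls (difference -1.61, adjusted p = 0.0508, and 0.0176 without the 2 arrays).

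Complement and coagulation genes had 33 of 34 differences below 0 and a median of -0.35, with 1 called, the mannose-binding lectin gene Mbl1 (-0.68, SE 0.16, adjusted p = 0.0497). In the fit without the 2 arrays 8 fell. Of 26 acute phase genes 24 had differences below 0 (median -0.45, with 1 higher and 4 lower called without the 2 arrays), and Steap4, a metalloreductase, was called. It was 8.67, 8.10 and 8.68 in PFOS livers, against 9.47, 10.30 and 9.86 in controls, a fall of 1.39 (SE 0.24, adjusted p = 0.0128). Of 27 genes of endoplasmic reticulum stress 22 had differences below 0 (median -0.46, with 1 higher and 5 lower called without the 2 arrays), and Herpud1, a part of the degradation machinery there, fell by 0.72 (SE 0.15, adjusted p = 0.0321). Hspa5, the main chaperone of that compartment, chosen after its values were seen, read 8.19, 8.01 and 7.76 in PFOS livers, against 8.60, 9.17 and 9.37 in controls (-1.06, SE 0.27, adjusted p = 0.0676).

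The 12 hepatocyte markers moved the same way as these lists. All 12 had differences below 0 (median -0.18) with none called (1 fell without the 2 arrays), and their mean signal was 12.16 to 12.20 in PFOS livers, against 12.36 to 12.46 in controls. In tissue RNA, fewer cells of a type and less RNA per cell cannot be told apart. The part of the hepatocyte markers in the falls of secreted proteins was not tested.

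Proteasome subunits had 30 of 30 differences above 0 and a median of 0.39, with 25 above all controls in every PFOS liver (11.4% of all genes were), yet none was called. Psmd4, a ubiquitin receptor of the proteasome, had the largest difference (0.79, SE 0.19, adjusted p = 0.0534) and Psmb5, a catalytic subunit, the next (0.70, adjusted p = 0.24). In the fit without the 2 arrays 7 rose. Of 43 nuclear-encoded genes of oxidative phosphorylation 40 had differences above 0 (median 0.29), none was called, and 6 rose without the 2 arrays. Cytochrome c (Cycs, 0.66, adjusted p = 0.305) and Ndufb3 of complex I (0.62, adjusted p = 0.136) differed most. Of 13 peroxins, which build peroxisomes, Pex3 rose (0.57, SE 0.13, adjusted p = 0.0453), and without the 2 arrays 4 rose.

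Other lists gave few calls or none. No gene was called of 20 in cholesterol synthesis and uptake (median 0.23), 24 in glucose metabolism (-0.05), 39 in the urea cycle and amino acid catabolism (0.04), 31 in the cell cycle (0.16), 17 of the clock (-0.25) and 14 in heme synthesis (-0.02). Besides Pdk4, given above, the largest differences in these lists did not pass: Fdps (0.74) and Dhcr7 (0.68) of sterol synthesis, Igfbp1 (0.77), an insulin-regulated binding protein of growth factors, the transaminase gene Got1 (0.99), the proline oxidase gene Prodh (-0.73), the replication genes Mcm6 (0.79) and Rrm1 (0.76), the clock genes Per1 (-1.02) and Bhlhe41 (0.60), and the biliverdin reductase gene Blvrb (0.51). Their adjusted p ranged from 0.0552 for Rrm1 to 0.617 for Igfbp1. Single genes of further lists were called: Plk2, a kinase among p53 targets, rose by 0.97 (adjusted p = 0.0109), Egr1, an immediate-early transcription factor, fell by 1.18 (adjusted p = 0.0231), and Apof, an apolipoprotein, fell by 0.77 (adjusted p = 0.0214). Pltp also rose among the 23 lipoprotein genes. Of 16 aldehyde dehydrogenases Aldh3a2 and Aldh9a1 rose.

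**Figure D4:**
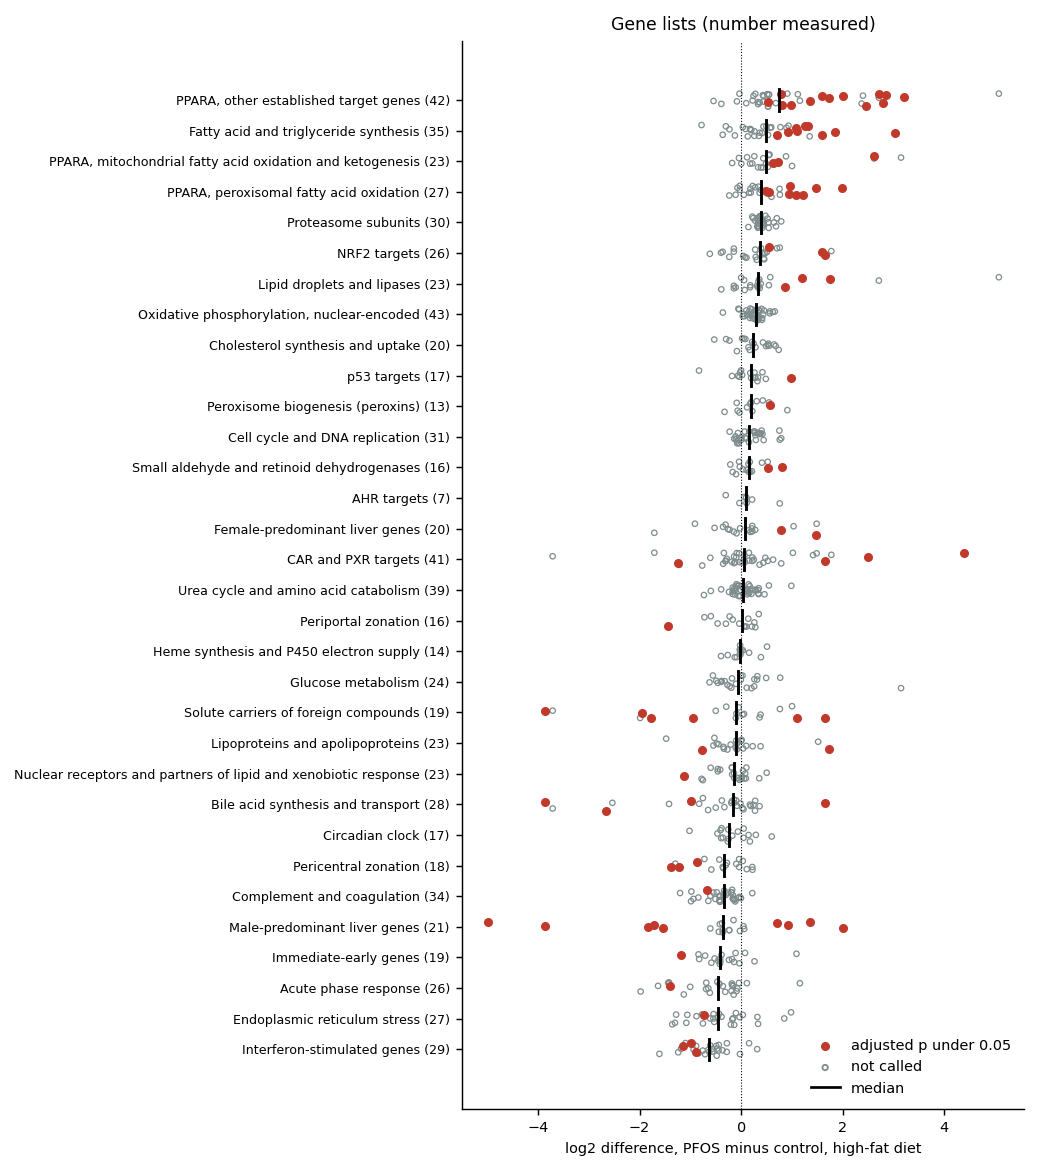
Log2 difference, PFOS minus control on the high-fat diet, of every measured gene in 32 lists, ordered by median; the number measured is in parentheses. Red points passed an adjusted p under 0.05 over all probes, grey circles did not, and the black bar is the median, which runs from 0.74 in the third PPARA list to -0.63 in interferon-stimulated genes.

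The largest called rise belonged to none of the lists. Sptlc3, a subunit of serine palmitoyltransferase, the first enzyme of sphingolipid synthesis, was 9.53, 9.61 and 8.88 in PFOS livers, against 4.04, 4.30 and 3.71 in controls. The control signals are below the array median, and the difference in array signal was 5.32 (SE 1.20, adjusted p = 0.0424, and 1.33e-08 without the 2 arrays). Leaving out any 1 of the 6 arrays ended the call for Sptlc3, with an adjusted p of 0.0941 to 0.133. Ctse, the protease cathepsin E, was 7.88, 7.65 and 8.22 in PFOS livers, against 4.99, 4.57 and 4.95 in controls, a rise of 3.08 (SE 0.42, adjusted p = 0.00224). Slc35f2, a membrane carrier, was 7.34, 7.34 and 7.45 in PFOS livers, against 6.17, 4.69 and 4.92 in controls, and rose by 2.12 (SE 0.28, adjusted p = 0.00178). The signals of Ctse in controls, and of Slc35f2 in control replicates 2 and 3, are near the array median. Their differences are therefore ones of array signal. Ctse and Slc35f2 stayed called without any 1 array. The zinc importer gene Slc39a5 (2.30, adjusted p = 0.0267), the zinc finger gene Zfp992 (2.17, adjusted p = 0.0122) and the imprinted gene Peg3 (2.11, adjusted p = 0.02) also rose by more than 2.

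Among the 20 largest falls of named genes (predicted genes and small RNAs left out), 8 belonged to none of the lists besides Slc10a2. Sdr9c7, a short-chain dehydrogenase, was 6.41, 6.14 and 5.97 in PFOS livers, against 8.21, 8.87 and 8.44 in controls, a fall of 2.33 (SE 0.44, adjusted p = 0.0196). Hsd11b1, the enzyme that regenerates active glucocorticoid, was 8.71, 8.21 and 8.09 in PFOS livers, against 9.66, 9.72 and 9.97 in controls, a fall of 1.45 (SE 0.33, adjusted p = 0.0447). The aldo-keto reductase gene Akr1c20 fell by 1.81 (adjusted p = 0.0149) and the cytochrome P450 gene Cyp2d40 by 1.33 (adjusted p = 0.0359). The others were the magnesium transporter gene Slc41a2 (-1.71, adjusted p = 0.0421), the semaphorin receptor gene Plxnb1 (-1.34, adjusted p = 0.0439), the phosphate transporter gene Slc17a1 (-1.27, adjusted p = 0.0271) and the sphingosine phosphate receptor gene S1pr1 (-1.27, adjusted p = 0.022). For Plxnb1 a dimmer probe gave 0.18.

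Markers of other cell types gave no call in 9 of 10 lists, the exception being Pnpla2 in the adipocyte list. Stellate cell and fibrosis markers had a median of -0.34 and a mean signal of 6.18 to 6.44 in PFOS livers, against 6.30 to 7.12 in controls. Macrophage markers had a median of -0.19 and a mean signal of 6.74 to 6.95 in PFOS livers, against 6.44 to 7.49 in controls. Both ranges overlap. Of the 20 stellate markers 16 had differences below 0 and 4 above. The matrix protease gene Mmp2 differed most (-0.84, SE 0.23, adjusted p = 0.0912). It read 5.33, 5.04 and 5.28 in PFOS livers, against 6.83, 5.61 and 5.72 in controls, without overlap. Control replicate 1 was the highest liver for Mmp2 and for the collagen gene Col1a1 (6.65, 6.14 and 6.43 in PFOS livers, against 8.41, 6.22 and 6.85 in controls). That replicate was also the control with the high Cidea signal. Lymphocyte markers had a median of -0.16, neutrophil markers of -0.04 and endothelial markers of -0.03.

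PFOS was also fed with the low-fat diet, where its livers were compared with their own controls, so the 2 differences share no array. Their tests are not independent, since both come from the same fit and use the same spread for each gene. For Krt23 the SE was 0.29 on both diets. A gene with a small shared spread is favoured for a call in both. The low-fat PFOS group also holds replicate 3, which lay beside the high-fat PFOS livers and enters all low-fat values here. On the low-fat diet 97 genes were called (0.437%), against 258 on the high-fat diet (1.16%). Of these, 41 were called in both, all in the same direction, which is 15.9% of the high-fat and 42.3% of the low-fat calls. They were 37 of the 182 genes called higher and 4 of the 76 called lower on the high-fat diet. The genes called higher on the high-fat diet had a median difference of 0.91 there and of 0.53 on the low-fat diet, while those called lower had a median of -0.95 there and of -0.36 on the low-fat diet. The first value of each pair belongs to the comparison that chose the genes, and no test was made of the medians.

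A test of the difference between the diets called no probe with all 18 arrays, with 2192 at an unadjusted p under 0.05 and a smallest adjusted p of 0.524. Ehhadh shows how the low-fat replicate apart enters that contrast. On the low-fat diet Ehhadh was 11.28, 11.64 and 13.17 in PFOS livers, against 11.66, 11.31 and 11.29 in controls, so replicate 3 was level with the high-fat PFOS livers and the others with their controls. Its difference was greater on the high-fat diet by 1.37 (adjusted p = 0.759). The low-fat difference of Ehhadh was 0.61 with replicate 3 and 0.04 without it.

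Sptlc3 had the same split, with 4.49, 4.44 and 9.66 in low-fat PFOS livers, against 3.73, 3.55 and 3.12 in low-fat controls. Its low-fat difference was 2.73 with replicate 3 and 0.998 without it, and that of Acot1 was 1.02 with it and 0.48 without it. For Slco1a1 the low-fat difference was -1.74 with replicate 3 and -1.0 without it.

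For Cyp2b10 low-fat replicate 3 was the lowest exposed liver of its group. On the low-fat diet it was 9.59, 10.63 and 7.94 in PFOS livers, against 4.58, 3.81 and 4.17 in controls, a difference of 5.20 (adjusted p = 0.00391). The difference on the high-fat diet was smaller by 0.81, with an adjusted p of 0.898, and the 95% interval of that contrast ran from -2.82 to 1.19. Igtp was called on both diets (-1.15 on the high-fat and -0.80 on the low-fat diet), as were Krt23 (3.22 and 2.18) and Pnpla2 (1.19 and 0.82).

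PFNA in the high-fat diet was compared with the same 3 control livers, so its differences and those of PFOS share their controls and are set side by side only. It gave 29 called genes (0.131%). Cyp2b10 differed by 4.39 with PFOS and by 5.26 with PFNA, Krt23 by 3.22 and 2.34, Acot1 by 2.71 and 1.80, Ehhadh by 1.98 and 1.01, Slco1a1 by -3.87 and -1.45, and Igtp by -1.15 and -0.89. Without PFNA replicate 3, the array apart, the PFNA difference was 6.09 for Cyp2b10, 2.07 for Krt23, 1.43 for Acot1, 0.49 for Ehhadh, -0.68 for Slco1a1 and -0.90 for Igtp, so leaving out 1 liver moved those of Ehhadh and Slco1a1 by more than 2 times. The doses are not stated in the labels, so the compounds cannot be taken as matched. Compared directly, PFOS and PFNA livers differed in 1 probe of 34472 (0.0029%), that of Slc22a30, with 2501 at an unadjusted p under 0.05. That call was lost whichever of the 6 arrays compared was left out.

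Between the compounds, the PFNA replicate apart lay with the PFOS livers for several genes. Ehhadh was 12.91, 13.26 and 13.12 in PFOS livers, against 11.70, 11.51 and 13.18 in PFNA livers. Sptlc3 was 9.53, 9.61 and 8.88 in PFOS livers, against 4.31, 4.40 and 9.55 in PFNA livers. Pigr was 10.61, 10.70 and 10.70 in PFOS livers, against 12.15, 12.08 and 10.88 in PFNA livers. In each case the other 2 PFNA livers lay on the side of the controls.

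**Figure D5:**
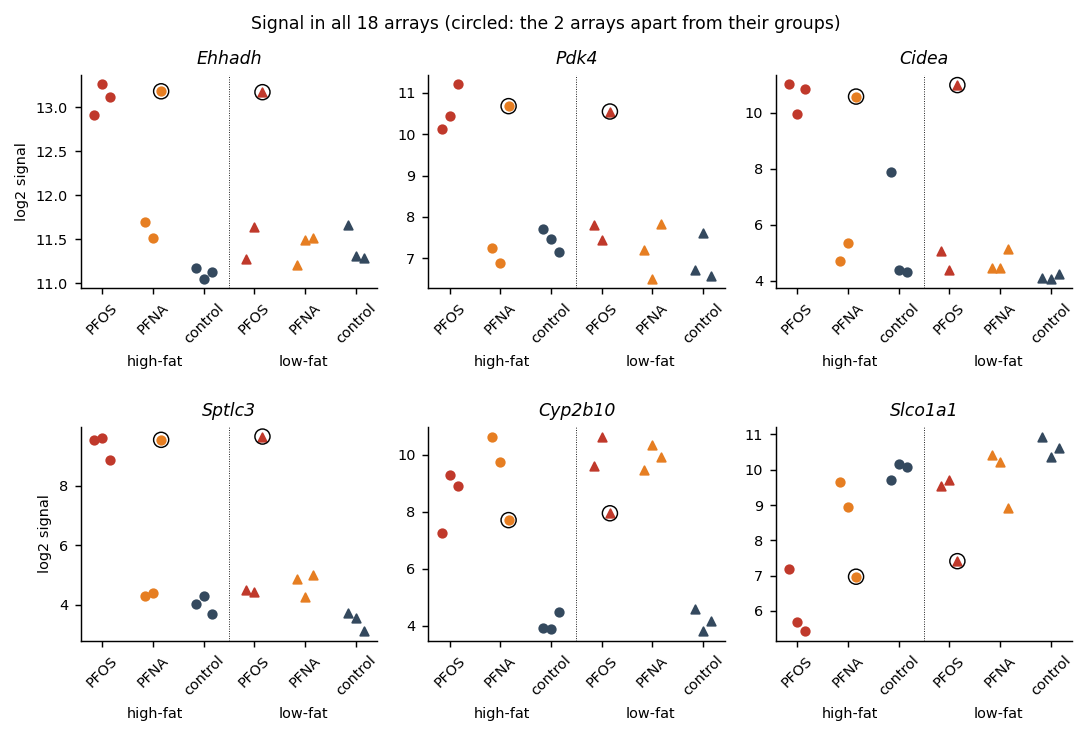
Log2 signal of 6 genes in all 18 arrays, by compound within each diet (red PFOS, orange PFNA, dark blue control; circles high-fat, triangles low-fat), each panel with its own axis and the 2 arrays apart from their groups ringed. For Ehhadh, Pdk4, Cidea, Sptlc3 and Slco1a1 the ringed arrays lie with the high-fat PFOS livers. For Cyp2b10 all exposed livers lie above all controls. There the ringed arrays (7.70 for PFNA and 7.94 for PFOS) lie within the range of the high-fat PFOS livers and below the other members of their groups.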

How the data were processed

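Total liver RNA of 18 mice (Trizol) was biotin-labelled for arrays, per the labels' protocols. The deposited table holds log2 signals of 34472 probes, made by the authors; the submitters' processing notes name Transcriptome Analysis Console. That the values are log2 is read from their range, since neither labels nor notes state the base, summarization or background correction. No value was filtered or rescaled. Differences were fitted with limma 3.58.1 in R 4.3.3 (lmFit and eBayes) to 6 group means over 18 arrays, with 12 residual and 5.21 prior degrees of freedom, and the fit was tested on simulated data. P-values were adjusted by Benjamini-Hochberg over all probes of a contrast and called under 0.05. The contrasts were PFOS against control on the high-fat diet, PFOS against PFNA on that diet, and the difference of the PFOS response between diets. SEs come from that fit.

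Of 34472 probes, 1814 carried several symbols and 9137 none. Genes were named by rule, leaving out predicted models, small RNAs and pseudogenes: the 20 largest called rises and falls, called members of the described lists, the 2 largest differences of a list with none called, and Ppara, Nr1i3, Nr1i2, Nfe2l2 and Ahr. Of 912 listed genes 812 were measured. The comparison and the lists were chosen with earlier results of these data known. An exact permutation test of 3 against 3 arrays cannot go below 0.1, so none was used. Same-numbered PFOS and control livers did not deviate together (correlations of -0.017, -0.0275 and -0.0723), so no pairing was assumed. Alternatives covered the arrays in the fit, normalization, probe filter, variance model, array weights and single arrays left out. The fit of 4 groups without an array apart, and the values without replicate 3 of low-fat PFOS or high-fat PFNA, were added after seeing the data.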

Additional observations from a re-analysis of the deposited data

Results flagged for a closer look

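Slc22a30 was the 1 gene called between PFOS and PFNA on the high-fat diet, with a difference of -1.36 (adjusted p = 0.0472 with limma). It read 4.58, 3.93 and 4.53 in PFOS livers, against 5.45, 5.77 and 5.89 in PFNA livers, and the groups do not overlap. The PFOS signals are near or below the array median and so not shown above background. No probe was called in this contrast when the compared groups alone were fitted, under quantile normalization, under median centring or with a replicate block. The call of Slc22a30 was also lost whichever of the 6 arrays compared was left out.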

How the results depend on the processing

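For PFOS against control on the high-fat diet, the count of 352 called probes became 794 with probes above the median signal only, 550 with trend and robust variance, 578 with array weights, 739 with 4 groups without an array apart, 1011 without the 2 arrays and 167 with an added difference of at least 1. It stayed within 1.5 times under quantile normalization (375) and in the compared groups alone (283, of which 172 were among the 352). Median centring gave 415, with 301 higher and 114 lower, against 218 and 134. With the replicate block it was 414. Leaving out single arrays gave 61 to 184. For PFOS against PFNA the 1 call became 0 in the compared groups alone, under quantile normalization, under median centring and with the replicate block, 510 without the 2 arrays, and 0 to 1 without single arrays, the 1 being another probe than that of Slc22a30. The difference between diets had 0 calls in all settings run except 83 without the 2 arrays. Those arrays were chosen for lying beside the PFOS livers, which favours calls in each of these contrasts when they are left out. The counts of 1011, 510 and 83 are therefore not read as evidence of further differences. Of 82 named called genes, 61 stayed called in the compared groups alone, 80 under quantile normalization, 80 under median centring, 73 with trend and robust variance and 74 with the block, and 20 to 43 without single arrays; none reversed. Uncalled genes that changed sign were Ppara (0.01 under median centring, and -0.1 to 0.0117 without single arrays), Nfe2l2 (-0.325 to 0.015 without single arrays), Tspan8 (-0.643 to 0.0317) and Gpnmb (-1.22 to 0.232), the last 2 above 0 without control replicate 1. Signals near the array median limit what the dimmest genes can show. The cause of these shifts was not tested.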
